A study of Homo sapiens with 6 samples.

Results

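The genes described here encode 3 linked parts of the cell's messenger RNA degradation machinery: deadenylation, the RNA exosome and nonsense-mediated decay. They were taken as a list of 36 gene names, 14 for deadenylation, 15 for the exosome and its cofactors and 7 for nonsense-mediated decay, out of 36328 names on the array, and the brightest probe stood for each gene. RNA came from MOLT-4, a T-cell acute lymphoblastic leukaemia line, transfected with an empty vector (mock, 3 arrays) or with NUDT16, which encodes a decapping enzyme (3 arrays). Capped RNA was pulled down from total RNA with an antibody against m3G and m7G caps, labelled with Cy3 and hybridised to 1-colour arrays, so every value is the signal of a transcript in the cap eluate. RNA from before the pull-down was not analysed here, so the amount of a transcript, its capping and its recovery cannot be told apart. In a bulk eluate, fewer cells that make a transcript and less of it per cell cannot be told apart either. The labels do not say whether the 3 samples of a group were separate cultures, so p-values measure only the spread between these samples, which may be technical.

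A messenger RNA usually loses its poly(A) tail first, through the PAN2-PAN3 and CCR4-NOT complexes, and is then degraded either from its 5′ end after decapping or from its 3′ end by the exosome. Nonsense-mediated decay is the surveillance pathway that sends transcripts with a premature stop codon into these routes. Its core factor UPF1 is joined by UPF2 and UPF3 proteins, phosphorylated by the kinase SMG1 and read by the effectors SMG5 and SMG6. The messenger RNAs of several of these factors are themselves known targets of the pathway. NUDT16 removes 5′ caps, so the comparison of NUDT16 with mock asks which capped transcripts gain or lose signal in the eluate.

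Levels are given on a log2 scale with each array set to its own 75th percentile, computed from the 6582 probes well above background on all 6 arrays, and differences are NUDT16 minus mock on that log2 scale. Levels of different genes are not compared, since each probe has its own response. Of the spots for cell RNA, 39.3% to 51.1% lay well above background on the mock arrays, and 42.3%, 14.6% and 52.0% on NUDT16 replicates 1, 2 and 3, so NUDT16 replicate 2 stood apart. Same-numbered arrays shared a slide, and their deviations from the group means went together, with r of 0.837, 0.397 and 0.758 across 13696 genes. Of 19 T-lineage markers on the array, 18 were well above background on at least 4 arrays, among them CD3D, CD3E, LCK and TCF7, while all 5 fibroblast markers were on 0 arrays, and 1 of 5 B-lineage (CD79A) and 1 of 5 epithelial markers (KRT8) were on all 6. Neither of 2 NUDT16 probes was above background on any array, so they do not check the labels. Of 2 probes for the NUDT16 pseudogene NUDT16P1, 1 was above background on 3 NUDT16 and 0 mock arrays (difference 6.91, SE 0.60). The other NUDT16P1 probe was above background on 0 arrays of either group.

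The probes that carry the results are shown first. Each is the opening 30 bases of a 60-base probe as listed in the array file, 5′ to 3′, with every G and C in capitals, because the composition of the probe went with the difference measured. Coordinates are on hg19 and cover the 30 bases shown. Genes with lower NUDT16 signal in all 3 pairs come first and genes with higher signal last. 
UPF3A (chr13:115070517-115070546, plus strand): GGGtGaCataGaaaCaCGCaGaaaCCattC
UPF3B (chrX:118968506-118968535, minus strand): GaCaCGaGaGaaaaGtaaGaGCtGGttCta
SMG1 (chr16:18872042-18872071, minus strand): atttGtCGaatGtaCCGaGCaattaGaatt
UPF2, 5′-most probe (chr10:12077267-12077296, minus strand): CtCaCtGCCaaGaaGGaGGtCaGCaaGGCC
UPF2, 3′-most probe (chr10:11962874-11962903, minus strand): ttGatttGaGtttCaGtGtCtCtGaattGa
EXOSC3 (chr9:37780670-37780699, minus strand): ttCtCCaGattGGCaGaaaGttGatataGG
UPF1 (chr19:18978975-18979004, plus strand): aCttttGattttCGGtCaatttaaGttCtt
SMG5 (chr1:156219325-156219354, minus strand): tatCtGGGaGCaGaGatCatGaataGCtCa
EXOSC5 (chr19:41898811-41898840, minus strand): aGGtCaGCaaaGaGattttCaaCaaGGCCa
Over all 60 bases, the probes held 21 G or C for UPF3A, 23 for UPF3B, 21 for SMG1, 24 for EXOSC3, 15 for UPF1, 33 for SMG5 and 29 for EXOSC5. The UPF2 probes held 31 at the 5′ side and 23 at the 3′ side.

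Of the 36 genes, 33 had a brightest probe that all 3 arrays of a group detected well above background and were tested, 17 of them on all 6 arrays. The other 16 tested genes were at background on NUDT16 replicate 2 alone and so entered the test through the mock group. No gene of the list passed the threshold of an adjusted p of 0.05 (0 of 33, limma with Benjamini-Hochberg adjustment over 13696 genes, every adjusted p 0.998), against 0.0073% of all genes tested, which is the single gene NUDT16P1. At an unadjusted p under 0.05 in the same fit there were 7 genes on the whole array. The difference was below 0 for 23 and above 0 for 10 of the 33, with a median of -0.45 beside -0.06 over all genes. The groups overlapped for each of the 33, whereas 0.263% of all genes had all NUDT16 arrays below all mock arrays and 0.336% above them.

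Because same-numbered arrays varied together, the difference within each pair is given as well. A pair was read as having a direction where both arrays were well above background, or where the detected one lay above the lowest such signal of the other array, a reading chosen after seeing the data. On NUDT16 replicate 2 that lowest signal was -3.52, and the 16 genes at background there read between -5.80 and -3.58. Their mock partner lay above -3.52 for 5 (CNOT7, CNOT10, SKIV2L2, TTC37 and UPF3A) and below it for 11, so for those 11 the second pair gives no direction. For the 5, the second pair could only be read as lower. Of the 22 genes with a direction in every pair, 9 were lower in all 3 (40.9%, against 28.4% of all such genes) and 4 were higher in all 3 (18.2%, against 22.1%). SKIV2L2 and UPF3A are counted among the 9 with a second pair that could only be read as lower. Among the 17 measured on all 6 arrays, 7 were lower in 3 pairs (41.2%, against 18.4% of all genes measured there) and 4 were higher (23.5%, against 27.8%). With a median shift or with no scaling, where the median of all genes moved from -0.06 to -0.74 and -1.06, the 10 fitted differences above 0 all turned negative. Both settings move all genes of an array alike. Relative to the median of all genes the differences of the 33 therefore could not change there (33 of 33 in each), which adds no support to their direction. The 7 genes measured on all 6 arrays and lower in 3 pairs are CNOT2, EXOSC3, EXOSC9, EXOSC10, UPF2, UPF3B and SMG1. With the replicate number as a block, 0 of the 33 passed (limma smallest adjusted p 0.488). At an unadjusted p under 0.05 that fit held 7 of the 33, all lower, namely EXOSC3, EXOSC9, DIS3L, UPF2, UPF3A, UPF3B and SMG1, against 7.62% of all genes lower and 0.905% higher. Of these, DIS3L and UPF3A entered the test through the mock group, and the second pair of DIS3L gives no direction.

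**Figure D1:**
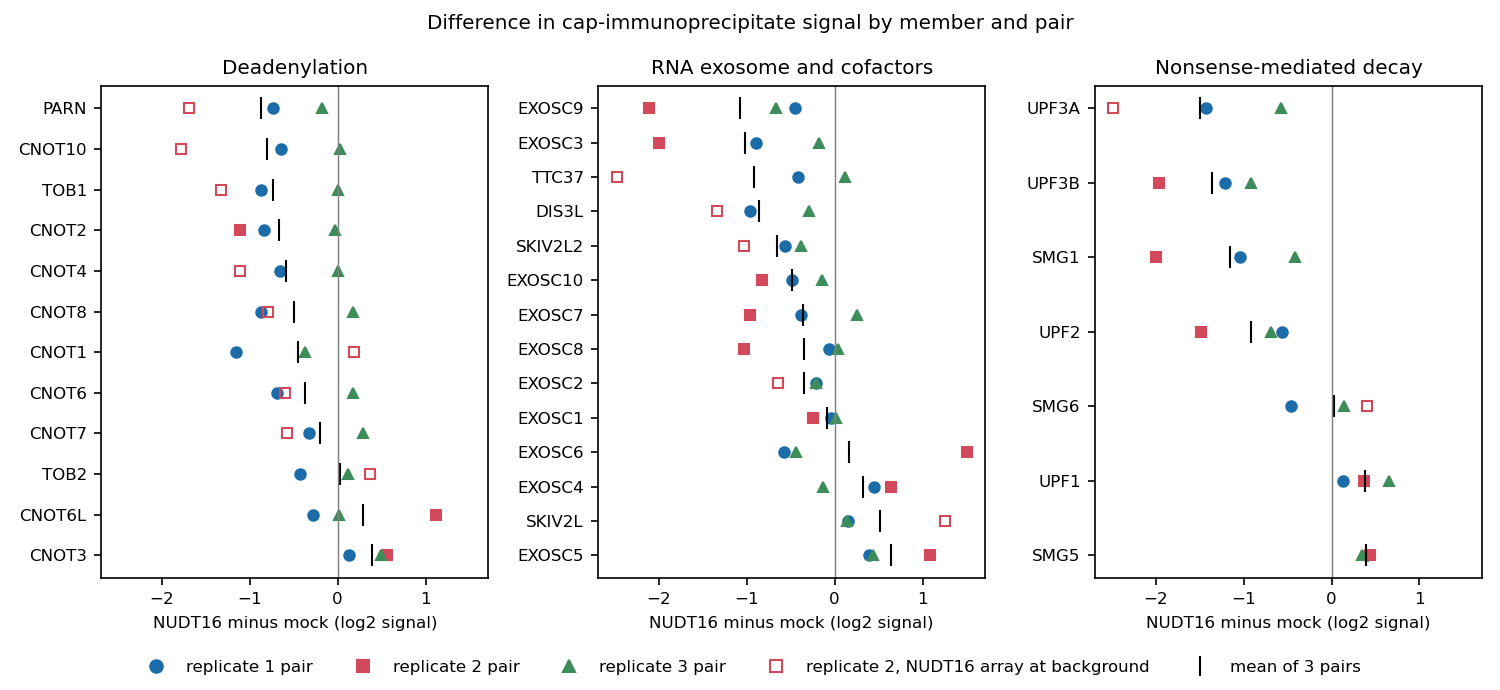
NUDT16 minus mock in log2 signal (x axis) for each of the 33 tested genes (y axis), by class, with a symbol for each same-numbered pair of arrays, open where NUDT16 replicate 2 was at background, and a bar at the mean of the 3 pairs. Replicate 2 pairs reach from -2.49 (UPF3A) to 1.51 (EXOSC6), while replicate 3 pairs stay between -0.91 (UPF3B) and 0.65 (UPF1).

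Nonsense-mediated decay factors divided by direction. The median difference was -0.91 over 7 genes, and on replicates 1 and 3 alone it was -0.63 beside -0.19 over all genes. UPF2, UPF3A (whose second pair could only be read as lower), UPF3B and SMG1 were lower in all 3 pairs. UPF1 and SMG5 were higher in all 3, and the second pair of SMG6 gave no direction. None of the 7 passed the test over all genes. UPF1 and SMG5 turned to -0.29 and -0.28 with a median shift and to -0.61 and -0.60 with no scaling. Relative to the median of all genes they were at 0.45 and 0.46, values that these settings cannot change. The spread between arrays of one group was wide, with SDs from 0.84 to 1.56 in mock and 0.82 to 1.69 in NUDT16 (n = 3 each).

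UPF1, the RNA helicase at the centre of the pathway, read -0.13, -2.37 and -1.23 on mock replicates 1, 2 and 3 and 0.01, -2.0 and -0.58 on the NUDT16 arrays in the same order. Each NUDT16 array was above its own mock partner, by 0.14, 0.37 and 0.65. The arrays of replicates 1 and 2 lay further apart within each group than any pair did. The fitted difference was 0.39 (SE 0.75, 95% interval -1.24 to 2.01, limma adjusted p 0.998), so the groups could not be told apart. SMG5, an effector that binds phosphorylated UPF1, read -1.54, -3.22 and -2.37 in mock and -1.14, -2.78 and -2.02 in NUDT16. Its 3 pairs were close to each other at 0.40, 0.44 and 0.35, with the same order of slides as UPF1. A second SMG5 probe did not share this, with -0.20, 0.35 and -0.07 in the 3 pairs.

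UPF2, the adaptor that links UPF1 to the UPF3 proteins, read -1.49, 0.41 and 0.97 in mock and -2.06, -1.07 and 0.28 in NUDT16. Both arrays of replicate 1 were the lowest of their group, and each NUDT16 array was below its partner, by -0.56, -1.48 and -0.69. The fitted difference was -0.91 (SE 0.80, interval -2.65 to 0.83, limma adjusted p 0.998), and the block left the difference as it was and lowered the SE to 0.33 (limma unadjusted p 0.0319, adjusted p 0.488).

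UPF3A and UPF3B are paralogues that tie the pathway to the exon junction complex. UPF3A read -4.57, -1.73 and -2.05 in mock and -6.00, -4.22 and -2.62 in NUDT16, where replicate 2 was at background. Its pair differences were -1.43, -2.49 and -0.57, and its fitted difference of -1.49 (SE 0.94, interval -3.53 to 0.55, limma adjusted p 0.998) was the lowest of the list. UPF3B, the X-linked member, read -4.02, -1.20 and -2.36 in mock and -5.23, -3.16 and -3.27 in NUDT16. All 6 arrays measured it, its pairs were -1.21, -1.97 and -0.91, and the fit gave -1.36 (SE 0.82, interval -3.15 to 0.42, limma adjusted p 0.998). For both genes the lowest mock array lay below the highest NUDT16 array. Restricted to the pairs of replicates 1 and 3 with the replicate block, UPF3B was the 1 gene of the 33 past the threshold (-1.06, SE 0.28, limma adjusted p 0.0381), where 1.73% of all genes were called lower, and UPF3A had -0.999 (limma adjusted p 0.0573). With 2 pairs, that fit takes its error almost wholly from all genes, with SEs of 0.279 for EXOSC2 and 0.291 for CNOT8. A pass there reflects the mean of the 2 pairs and says little about a gene's own spread.

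SMG1, the kinase that phosphorylates UPF1, read -0.49, 0.30 and 1.71 in mock and -1.53, -1.70 and 1.29 in NUDT16. The array of NUDT16 replicate 3 lay above the mock arrays of replicates 1 and 2, so the groups overlapped although each pair was lower, by -1.04, -1.99 and -0.42 (fitted -1.15, SE 0.87, limma adjusted p 0.998). SMG1 has near-identical pseudogene copies, so its probes may read those transcripts too. SMG6, the endonuclease that cuts target transcripts, read -3.80, -6.03 and -4.25 in mock and -4.26, -5.63 and -4.11 in NUDT16, and its fitted difference was 0.03 (SE 0.73). NUDT16 replicate 2 was at background for SMG6, which leaves pairs of -0.46 and 0.14 from replicates 1 and 3.

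**Figure D2:**
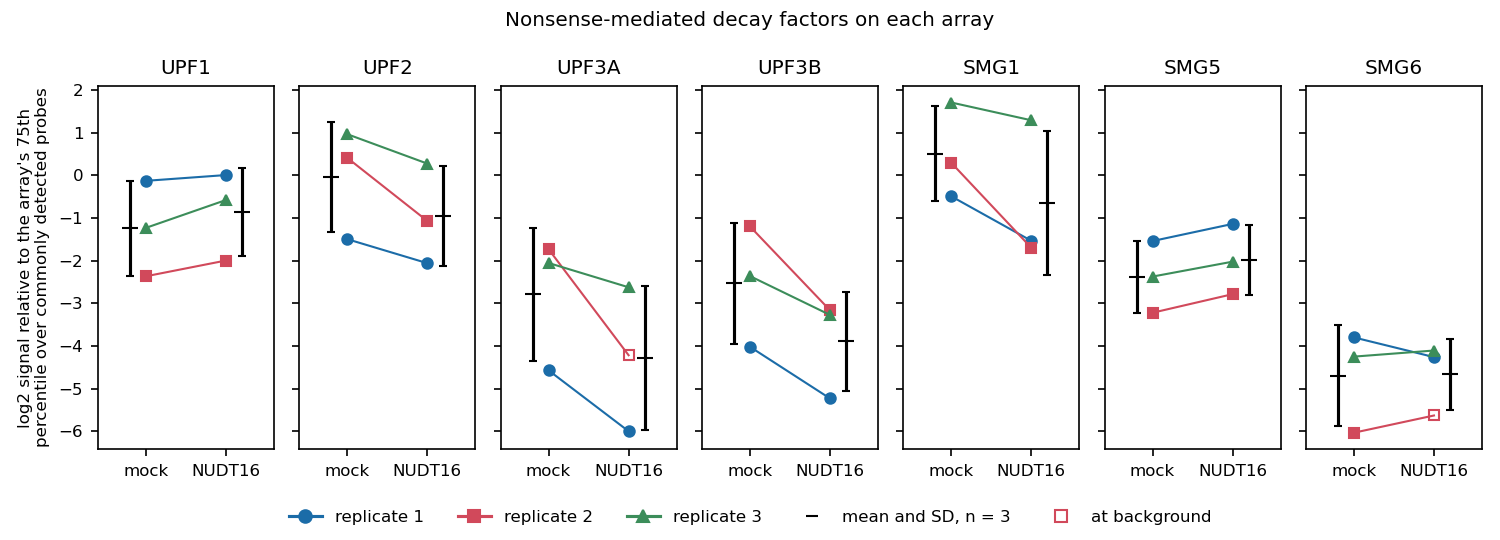
log2 signal (y axis) of the 7 nonsense-mediated decay factors on each mock and NUDT16 array, with lines joining same-numbered arrays and bars for the mean and SD of 3 arrays. Lines run down for UPF2, UPF3A, UPF3B and SMG1 and up for UPF1 and SMG5, and for UPF3A the 3 mock arrays span from -4.57 to -1.73.

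SMG1 and UPF2 are measured by several probes, which allows the direction to be read along each gene. All 9 SMG1 probes and all 5 UPF2 probes were tested. Of the SMG1 probes, 8 were lower in all 3 pairs, with fitted differences from -1.39 to -0.47. The exception is the 3′-most probe, 90.6 kb from the 5′-most one, which was lower by -0.85 and -0.11 in pairs 1 and 3 and higher by 1.39 in pair 2, where the NUDT16 array was at background. Of the UPF2 probes, 3 were lower in all 3 pairs, with fitted differences from -1.27 to -0.91 and the lowest at 35.3 kb. The probe at 104 kb was lower in pairs 1 and 3 (-0.68 and -0.85), and its second pair gave no direction. The one at 105 kb read -0.12, 0.34 and -1.09, again with NUDT16 replicate 2 at background. That array was also at background for the SMG1 probes at 6.65, 11 and 36.5 kb and the UPF2 probes at 35.3 and 114 kb. Their mock partner lay above -3.52, so their second pair could only be read as lower. No probe of either gene passed the threshold over all probes (limma smallest adjusted p 0.999), nor in the fit on replicates 1 and 3 (smallest 0.0806 for SMG1 and 0.0901 for UPF2). The second UPF3A probe gave -1.32 and -0.71 in pairs 1 and 3, with a fitted difference of -1.40, and was at background on NUDT16 replicates 1 and 2, so its second pair gave no direction. In the probe-level fit on replicates 1 and 3 both UPF3A probes passed (limma adjusted p 0.034 and 0.0302), the second with NUDT16 replicate 1 at background. That fit gave every tested probe of the list the same SE of 0.301, so these passes do not measure a probe's own spread.

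**Figure D3:**
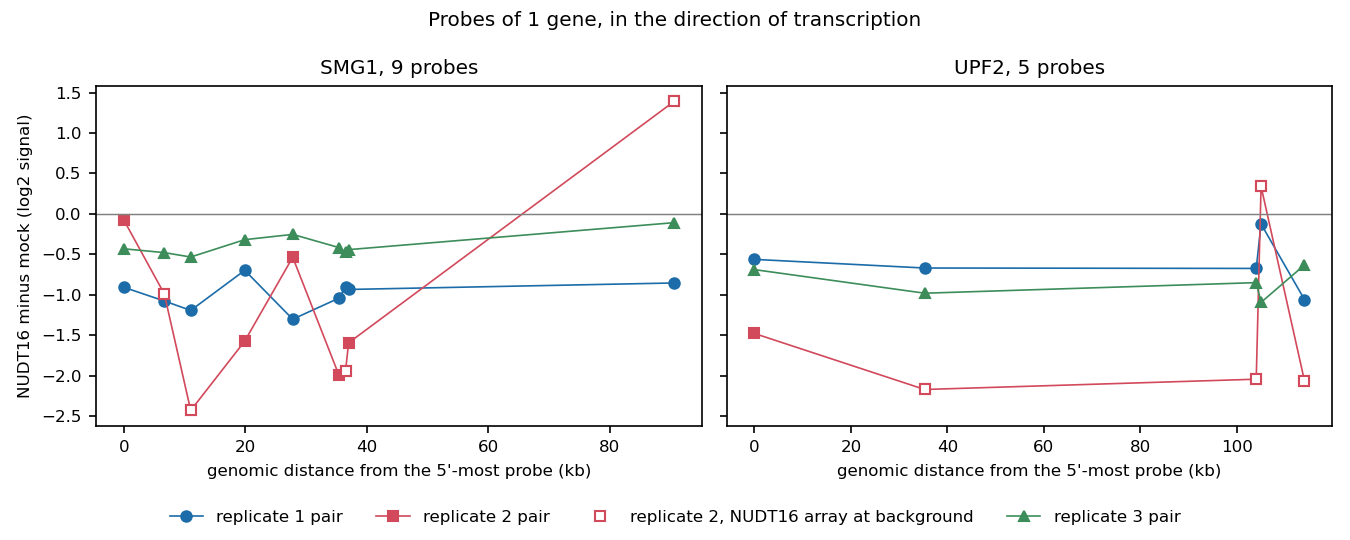
NUDT16 minus mock in log2 signal (y axis) for each probe of SMG1 (9 probes) and UPF2 (5 probes) against genomic distance from the 5′-most probe in kb (x axis), 1 line per same-numbered pair. Pairs 1 and 3 lie below 0 at every probe, and the probes above 0 in pair 2 are those at 90.6 kb in SMG1 and 105 kb in UPF2, both with the NUDT16 array at background. In pair 2 that array was also at background at 6.65, 11 and 36.5 kb in SMG1 and at 35.3, 104 and 114 kb in UPF2.

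Exosome genes had a median difference of -0.36 over 14 tested genes beside -0.06 over all genes. On replicates 1 and 3 alone it was -0.18 beside -0.19, so there the class lay level with all genes. Of the 14, 5 were at background on NUDT16 replicate 2 alone and entered the test through the mock group. Of the 11 with a direction in every pair, 4 were lower in all 3 (EXOSC3, EXOSC9, EXOSC10 and SKIV2L2, whose second pair could only be read as lower) and 1 was higher in all 3 (EXOSC5). The second pair gave no direction for EXOSC2, DIS3L and SKIV2L, and 0 of the 14 were called. The exosome is a barrel of ring proteins topped by cap proteins, with separate nuclease subunits that degrade RNA from its 3′ end.

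Among the cap proteins, EXOSC3 was lower in each pair. It read -2.97, -1.08 and -1.78 in mock and -3.86, -3.08 and -1.97 in NUDT16, lower by -0.89, -2.0 and -0.18 (fitted -1.02, SE 0.71, limma adjusted p 0.998). EXOSC1 was nearly flat, at -1.78, -1.57 and -1.78 in mock and -1.82, -1.82 and -1.76 in NUDT16. Its SDs, 0.12 and 0.04, were the lowest of the list, and its difference of -0.09 had an interval from -1.30 to 1.12 because the fit borrows its error from all genes. EXOSC2 read -4.00, -4.51 and -3.84 in mock and -4.21, -5.15 and -4.05 in NUDT16, with replicate 2 of NUDT16 at background. Its pairs of replicates 1 and 3 were both at -0.21.

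The ring proteins were split. EXOSC9 read -1.01, 0.78 and 0.57 in mock and -1.46, -1.33 and -0.10 in NUDT16, and its difference of -1.08 (SE 0.69, interval -2.57 to 0.42, limma adjusted p 0.998) was the lowest of the exosome genes. EXOSC5 read -2.88, -3.62 and -4.25 in mock and -2.49, -2.54 and -3.81 in NUDT16, higher in each pair by 0.39, 1.08 and 0.44 (fitted 0.64, SE 0.65, interval -0.77 to 2.05, limma adjusted p 0.998), the highest difference of the list. These ring genes had the lowest and the highest difference of the exosome list, each with overlapping groups, and EXOSC5 turned to -0.04 with a median shift and -0.36 with no scaling, which move all genes alike. EXOSC4 read -0.01, 0.08 and -0.70 in mock and 0.45, 0.73 and -0.83 in NUDT16. EXOSC6 read -3.00, -2.54 and -2.01 in mock and -3.58, -1.03 and -2.45 in NUDT16, where replicate 2 alone was above its partner. Its difference of 0.16 became -0.50 without that array, while EXOSC4 kept its sign there. EXOSC7 read -1.52, -2.23 and -2.07 in mock and -1.89, -3.19 and -1.81 in NUDT16. EXOSC8 read -1.0, -0.43 and -1.03 in mock and -1.06, -1.46 and -0.99 in NUDT16. In both, the second pair was the lowest (-0.96 and -1.03), and pair 3 was above 0 (0.26 and 0.04).

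Among the nucleases and their helicase partners, EXOSC10, DIS3L and SKIV2L2 had fitted differences below 0 and SKIV2L one above 0, with none called. EXOSC10, the nuclear nuclease, read -1.43, -2.11 and -0.93 in mock and -1.92, -2.93 and -1.08 in NUDT16, lower in each pair by -0.48, -0.82 and -0.15. DIS3L, the cytoplasmic nuclease, read -4.52, -4.22 and -2.95 in mock and -5.47, -5.56 and -3.24 in NUDT16 (difference -0.86, SE 0.76, limma unadjusted p 0.0417 and adjusted p 0.488 with the block). DIS3, the main catalytic subunit, was not tested, since mock and NUDT16 replicate 2 were both at background. Its measured arrays read -6.33 and -5.78 in mock and -7.41 and -6.60 in NUDT16 for replicates 1 and 3. SKIV2L2 (now MTREX), the helicase that feeds RNA to the nuclear exosome, read -2.94, -3.02 and -1.80 in mock and -3.51, -4.05 and -2.18 in NUDT16, and each pair was lower, with NUDT16 replicate 2 at background.

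In the cytoplasmic helicase complex, SKIV2L and TTC37 differed in direction in pair 1 (0.15 and -0.42), and both were above 0 in pair 3 (0.14 and 0.12). SKIV2L (now SKIC2), its helicase, read -2.77, -5.61 and -3.84 in mock and -2.62, -4.36 and -3.70 in NUDT16, above its partner by 0.15 and 0.14 in pairs 1 and 3, the second pair having no direction. TTC37 (now SKIC3), its scaffold, read -3.64, -3.12 and -2.06 in mock and -4.06, -5.59 and -1.94 in NUDT16. For TTC37 the difference was -0.92 (SE 0.86) over all pairs and -0.15 over replicates 1 and 3. NUDT16 replicate 2 was at background for it, so its second pair could only be read as lower.

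On replicates 1 and 3 alone, deadenylation genes had a median difference of -0.32 beside -0.19 over all genes. Over all 3 pairs it was -0.47 for 12 tested genes, of which 9 were at background on NUDT16 replicate 2. Of the 5 with a direction in every pair, 1 was lower in all 3 (CNOT2) and 1 was higher in all 3 (CNOT3), and 0 of the 12 were called. In pair 3, where both arrays detected the most, the median was 0.02 and 9 of the 12 were above 0, against 11 of 12 below 0 in pair 1. Over all genes, 9560 of 13696 were below 0 in pair 1 (median -0.32) and 7270 in pair 3 (median -0.03), so the pairs also differed array-wide.

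In the CCR4-NOT complex, CNOT1 is the scaffold on which the other subunits sit. It read -4.80, -4.50 and -3.01 in mock and -5.96, -4.31 and -3.39 in NUDT16, and the pairs of replicates 1 and 3 were at -1.15 and -0.38. CNOT2 and CNOT3 form the NOT module together, and they differed in direction. CNOT2 read -2.23, -0.89 and -0.55 in mock and -3.07, -2.01 and -0.58 in NUDT16 (difference -0.66, SE 0.75). CNOT3 read -1.31, -2.98 and -2.29 in mock and -1.18, -2.43 and -1.80 in NUDT16 (difference 0.39, SE 0.65). A second CNOT3 probe gave 0.00, 1.87 and -0.66 in the pairs, so the 3 pairs shared a direction for the brightest probe and not for the other. CNOT4, a ubiquitin ligase linked to the complex, read -4.58, -4.68 and -3.77 in mock and -5.23, -5.78 and -3.77 in NUDT16. CNOT10, a further subunit, read -3.61, -3.34 and -3.18 in mock and -4.26, -5.12 and -3.15 in NUDT16. Both had replicate 2 of NUDT16 at background and a pair 3 difference near 0 (0.0008 and 0.03).

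The catalytic subunits of CCR4-NOT come as pairs of paralogues. CNOT6 read -4.53, -5.12 and -3.98 in mock and -5.21, -5.72 and -3.81 in NUDT16. CNOT6L read -2.94, -4.18 and -2.95 in mock and -3.21, -3.07 and -2.93 in NUDT16. CNOT6L gave -0.27, 1.11 and 0.02 in the pairs, and its second probe, at background on NUDT16 replicate 2, gave -1.04, -2.20 and -0.18. The second pair of that probe could only be read as lower. CNOT7 read -2.88, -3.00 and -2.21 in mock and -3.20, -3.58 and -1.92 in NUDT16. CNOT8 read -4.17, -4.93 and -4.18 in mock and -5.04, -5.72 and -4.00 in NUDT16. Both CAF1-type genes were lower in pair 1 (-0.32 and -0.87) and higher in pair 3 (0.29 and 0.18), so the brightest probes shared no direction across replicates. A second CNOT7 probe, also at background on NUDT16 replicate 2, was lower in all 3 pairs (-0.80, -2.59 and -0.23, fitted -1.21, SE 0.84). Its second pair could only be read as lower, and on replicates 1 and 3 its difference was -0.52.

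Outside CCR4-NOT, PARN, a poly(A)-specific ribonuclease that also trims small RNAs, read -4.11, -4.09 and -2.99 in mock and -4.84, -5.78 and -3.16 in NUDT16. Its difference of -0.87 (SE 0.74, interval -2.47 to 0.74, limma adjusted p 0.998) was the lowest of the deadenylation genes, with -0.74 and -0.18 in pairs 1 and 3 and no direction in the second. TOB1, an adaptor that brings CCR4-NOT to its targets, read -5.45, -4.42 and -4.08 in mock and -6.33, -5.75 and -4.08 in NUDT16. TOB2 read -5.03, -6.17 and -5.20 in mock and -5.46, -5.80 and -5.08 in NUDT16. TOB1 was lower in pair 1 and level in pair 3 (-0.87 and 0.01), and TOB2 was close to 0 with a fitted difference of 0.02. PAN2 and PAN3, the nuclease and adaptor of the complex that starts tail shortening, were not tested with their brightest probes, since both replicate 2 arrays were at background. On replicates 1 and 3, PAN2 read -4.79 and -5.81 in mock and -4.74 and -5.22 in NUDT16, and PAN3 read -5.89 and -6.23 in mock and -6.93 and -5.44 in NUDT16. A second PAN3 probe passed the fit on replicates 1 and 3 (-1.17, limma adjusted p 0.00876) although its pairs were -2.53 and 0.19 and NUDT16 replicate 1 was at background, and a second CNOT4 probe did too (-0.97, limma adjusted p 0.0417) with pairs of -0.87 and -1.06. Both had the same SE of 0.301, so that fit did not use a probe's own spread.

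The composition of the probe went with the difference, in members and in all genes alike. Of 26 tested genes with 27 or fewer G and C bases in the 60-base probe, 22 were lower and 4 higher, with a median of -0.54, and of 7 with 28 or more, 1 was lower and 6 higher, with a median of 0.32. Over all 13696 genes, medians ran from -0.27 for probes with 21 or fewer such bases to 0.41 for those with 34 or more. The correlation of this number with the difference was r = 0.395 across all genes and r = 0.358 across the 33, as a description, since probes share their arrays. It was present in pairs 1 and 2 (r = 0.284 and 0.401 over all genes) and near 0 in pair 3 (r = -0.00303). The members outside this division are UPF2, lower with 31 such bases, and UPF1, CNOT3, TOB2 and CNOT6L, higher with 15, 21, 22 and 27.

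When each array was centred on genes whose probes had the same number of G and C bases, an alternative chosen after seeing the data, the medians lay closer to that of all genes. The median was -0.13 for deadenylation, -0.14 for the exosome and -0.72 for nonsense-mediated decay, beside 0.06 over all genes. UPF2 was then at -0.65, -2.40 and -0.88 in the 3 pairs, UPF3A at -0.86, -1.79 and -0.53, UPF3B at -0.72, -1.29 and -0.79 and SMG1 at -0.48, -1.30 and -0.38. Those 4 were still lower in all 3 pairs and UPF1 was higher at 0.48, 0.51 and 0.60, whereas SMG5 was no longer higher in pair 2 (-0.54). Among the 17 genes measured on all 6 arrays, 5 were then lower in all 3 pairs (29.4%, against 12.3% of all genes measured there) and 5 were higher (29.4%, against 30.1%), and no gene passed the test (limma adjusted p 0.9999 for each). What part the probe's composition had in the differences was not tested further.

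**Figure D4:**
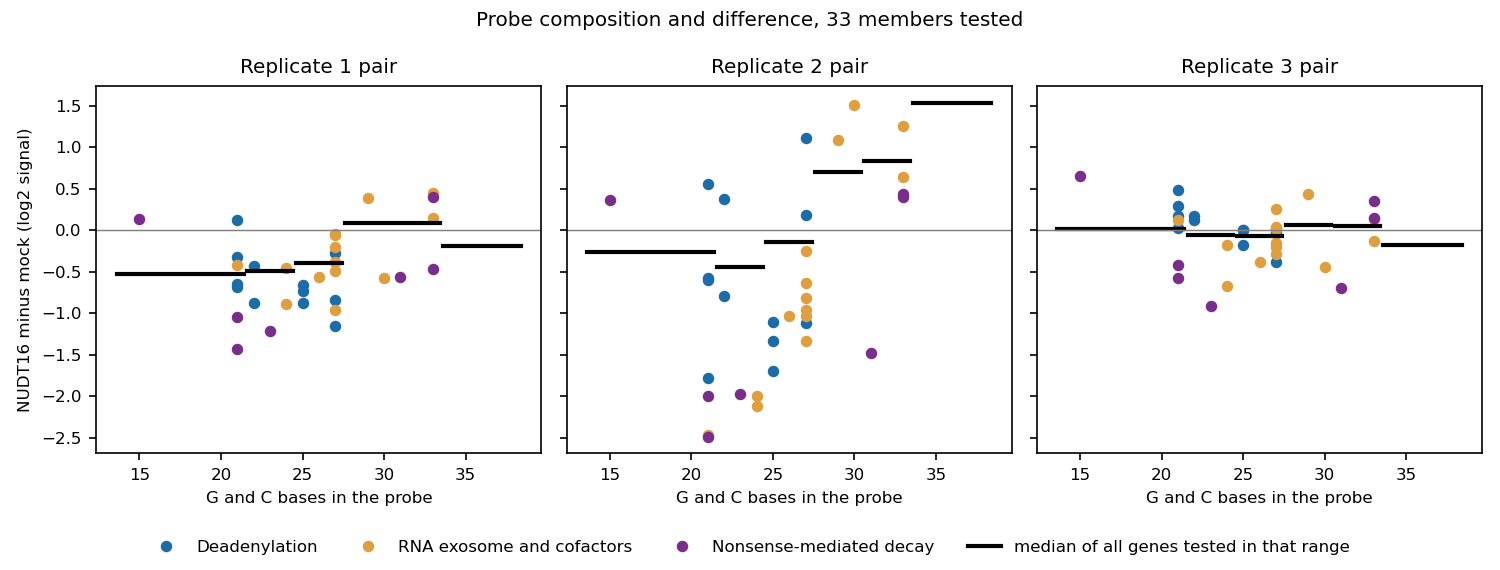
NUDT16 minus mock in log2 signal (y axis) against the number of G and C bases in the 60-base probe (x axis), 1 panel per same-numbered pair, with a point for each of the 33 tested genes coloured by class and a bar at the median of all genes tested in that range. In pair 2 the bars lie between -0.45 and 1.54 and in pair 3 between -0.17 and 0.07.

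Other genes of the 3 pathways, listed from knowledge of the pathways, gave the same count of calls. Of 48 names, 42 were on the array and 35 were tested, with 31 lower, 4 higher and 0 called, and a median of -0.40. Over all genes 7418 of 13696 were lower, with a median of -0.06. Of the 35, 25 were at background on NUDT16 replicate 2 alone, and on replicates 1 and 3 the median was -0.29 beside -0.19 for all genes. For deadenylation cofactors, 7 of 9 were lower. By the smallest unadjusted p in each direction, the genes named are C2orf29 (now CNOT11, a CCR4-NOT subunit) among the lower ones (-1.11, SE 0.75, limma adjusted p 0.998) and BTG2, a CCR4-NOT recruiting factor, among the higher ones (0.53, SE 0.61). Both were mixed over the pairs, and on replicates 1 and 3 C2orf29 was at -0.22 and BTG2 at 0.03. For exosome cofactors and 3′-end decay, 11 of 11 were lower, with 10 of them at background on NUDT16 replicate 2 alone. C1D, a nuclear exosome cofactor, had the smallest unadjusted p (-1.16, SE 0.80), and its pairs were -0.05, -3.38 and -0.04, so that on replicates 1 and 3 it was at -0.05. DIS3L2, named after its values were seen, is a nuclease that acts without the exosome. It had the lowest difference there (-1.29, SE 1.01) and was the 1 of 35 that passed in the fit on replicates 1 and 3 (-1.17, limma adjusted p 0.0308), where 1.73% of all genes were called lower. That fit takes its error almost wholly from all genes.

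Around nonsense-mediated decay, 13 of 15 such genes were lower, where 7418 of 13696 were lower over all genes. Their median was -0.36 beside -0.91 for the 7 core factors. Of the 15, 9 were at background on NUDT16 replicate 2 alone and entered the test through the mock group. On replicates 1 and 3 the median of the 15 was -0.24 beside -0.19 for all genes. MAGOHB, a paralogue of the exon junction protein MAGOH, had the smallest unadjusted p among them (-0.97, SE 0.61, limma adjusted p 0.998), and DHX34, a helicase of the pathway, was the higher one with the smallest p (0.31, SE 0.67). PNRC2, which links UPF1 to decapping and was also named after its values were seen, had the lowest difference of the 15 (-1.42, SE 1.03), was lower in all 3 pairs and was not called.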

How the data were processed

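Cap-immunoprecipitated RNA of 3 mock and 3 NUDT16 samples was measured, 1 array each. Per the file headers, the deposited intensity came from Feature Extraction 10.7.3.1 on Agilent's 039494 layout, spatially detrended, with surrogate values for dim spots. The submitters' processing notes name limma. The authors' deposited value table is on a log2 scale, made by steps not given in the sources used here. Its rank order equalled that of median minus background intensity (rho 1).

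Control and outlier spots were left out, spots of a probe were averaged, and 13 probes without a usable spot were dropped. The percentile was taken over probes detected everywhere, since under 50% of spots were well above background on 4 of 6 arrays. Probes detected on 3 arrays of a group were tested (17765 probes, 13696 genes by their brightest probe) by limma's lmFit and eBayes without a block, two-sided (limma 3.58.1, R 4.3.3). Arrays were paired by replicate number, and the correlations of deviations in the report show that same-numbered arrays varied together. Replicate number and slide are the same factor here, so what links the arrays cannot be told apart. Each gene's values are given on every array where it was tested, and cofactors were named by the smallest p. All 36 names matched current RefSeq genes, 35 by accession. The members and lists were chosen with earlier results of these data known. The fits were tested on simulated data in which same-numbered arrays shared 1 replicate effect. Without a block, 0% of log2 changes of 1 and of 2 were called, 10% of 3 and 60% of 4. With the block these were 4%, 80%, 98% and 100%, with 6 false calls. A lack of calls in the fit without a block therefore does not exclude changes of the sizes reported here.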

Additional observations from a re-analysis of the deposited data

How the results depend on the processing

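Of 644 differences of the 33 genes recomputed under the alternatives, 572 kept their direction, 72 reversed and 1 passed the threshold. Some of the 572 could not reverse, since 4 settings change only the error or the set of genes and leave each difference as it was. These are the replicate block, the limma intensity trend with robust prior and no filter (33 values each), and the filter on all 6 arrays (17 values). Of the 72, 10 each came from the median shift and from no scaling, which move all genes alike, and 13 from normexp, where the median of all genes was 0.46. Relative to the median of all genes, 583 kept their direction and 61 turned, 4 of them with normexp. Those 2 scalings, a 75th percentile over all probes, the replicate block and the intensity trend could turn 0, since they leave the relative difference as it was. CNOT2, EXOSC3, EXOSC8, EXOSC9, EXOSC10, SKIV2L2, UPF2, UPF3A, UPF3B and SMG1 stayed lower wherever a value was computed. Relative to the median of all genes, EXOSC8 and EXOSC10 did not, reaching 0.18 and 0.11, and the others named did. The cause of each reversal was not tested. The replicate block changed no call (limma smallest adjusted p 0.488). Restricting the blocked fit to replicates 1 and 3 called 12 probes higher and 601 lower, and 1 gene of the list (UPF3B, -1.06), 1 nonsense-mediated decay gene and 1 cofactor lower, and turned CNOT6L to -0.13, TOB2 to -0.15, EXOSC6 to -0.51 and SMG6 to -0.16. The 1 probe called higher was lost (0 called) with the authors' table, normexp, no scaling, no filter and the filter on all 6 arrays. Class medians for deadenylation, exosome and nonsense-mediated decay were -1.15, -1.03 and -1.59 with a median shift and -1.47, -1.35 and -1.91 with no scaling, beside -0.74 and -1.06 for all genes. Deadenylation stood at 0.29 with the filter on all 6 arrays, -0.95 with quantile normalization and 0.37 with normexp, which gave 0.17 for the exosome, while all genes stood at 0.18, -0.18 and 0.46, so relative to them deadenylation was at 0.11, -0.77 and -0.09 and the exosome at -0.29 with normexp.

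A median shift gave CNOT3 -0.29, CNOT6L -0.39, TOB2 -0.65, EXOSC4 -0.35, EXOSC5 -0.040, EXOSC6 -0.51, SKIV2L -0.17, UPF1 -0.29, SMG5 -0.28 and SMG6 -0.65, and no scaling gave -0.60, -0.71, -0.97, -0.67, -0.36, -0.83, -0.49, -0.61, -0.60 and -0.97 in that order. Normexp gave CNOT1 0.15, CNOT4 0.38, CNOT6 0.54, CNOT7 0.36, CNOT8 0.46, CNOT10 0.15, PARN 0.19, TOB1 0.33, EXOSC1 0.15, EXOSC2 0.44, EXOSC7 0.0085, DIS3L 0.19 and TTC37 0.22. Centring by G and C content, chosen after seeing the data, gave CNOT6 0.064, CNOT7 0.23, EXOSC1 0.16, EXOSC4 -0.035, EXOSC6 -0.17 and SMG6 -0.33. Quantile normalization gave TOB2 -1.08, EXOSC1 0.024 and SMG6 -0.46, the authors' table TOB2 -0.77, EXOSC1 0.074 and SMG6 -0.50, array weights TOB2 -0.0022 and EXOSC6 -0.20, and the mean of a gene's probes CNOT6L -0.43. Leaving out 1 array at a time gave 0 to 1 probes called higher (0 without mock replicate 2), medians of -0.99 to -0.13 for deadenylation, -0.58 to -0.069 for the exosome and -1.64 to -0.36 for nonsense-mediated decay, and differences of -1.03 to 0.26 for CNOT1, -0.0027 to 0.83 for CNOT3, -0.92 to 0.033 for CNOT6, -0.13 to 0.49 for CNOT6L, -0.69 to 0.14 for CNOT7, -0.33 to 0.24 for TOB2, -0.50 to 0.77 for EXOSC6, -0.61 to 0.086 for EXOSC7, -0.26 to 1.16 for SKIV2L, -0.18 to 0.96 for UPF1, -0.026 to 0.81 for SMG5 and -0.64 to 0.51 for SMG6. The same ranges were -1.58 to -0.27 for PARN, -1.88 to -0.058 for TTC37 and -2.39 to -0.63 for UPF3A. With 3 arrays a group, and 16 of 33 genes at background on NUDT16 replicate 2, the number of arrays and the signal over background limit the precision.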
